A study of Mus musculus with 9 samples.

Results

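The genes described here are 35 genes of germ cells, meiosis and the piRNA pathway, of the 52636 Ensembl gene IDs in the count table. They were given as a list of symbols, and each symbol matched 1 gene ID. They comprise 4 RNA-binding and related regulators of germ cells, 11 genes of the piRNA pathway and of nuage, 5 genes of the meiotic chromosome axis and synaptonemal complex, 4 genes of meiotic cohesin and DNA breaks, 9 other genes named for the testis, and the pair Kit and Prdm1 of primordial germ cells. The RNA came from mouse embryonic stem (ES) cells, in 9 libraries from 3 lines, 3 libraries per line.

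The lines are the Esrrb+Nanog line (titled NanogKO:Esrrb:Nanog, 44JN), the line titled NanogKO:Esrrb (44J), called the Esrrb line, and the Nanog-null line (NanogKO, 44C6), whose titles differ by the genes added. The labels give the genotype of the Nanog-null line as N{delta} and that of both other lines as N{delta}:cE:iN, so only the titles tell the Esrrb+Nanog line from the Esrrb line. All cells were untreated, were grown in medium with 10% serum and LIF (leukaemia inhibitory factor) at 1000 U per ml, and were sorted as PECAM-positive and PDGFRA-negative before total RNA was taken. Ribosomal RNA was depleted before library preparation. Each group is 1 line, so an added gene cannot be told apart from the line that carries it. Nothing in the labels tells whether the 3 libraries of a line came from separate cultures, so the p-values cover the spread among libraries only, which may be technical. In bulk RNA, fewer cells that express a gene and less RNA per cell cannot be told apart.

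The libraries held 21808120 to 32496267 counts. Nanog averaged 281 CPM in the Esrrb+Nanog line, 31.7 CPM in the Esrrb line and 14.9 CPM in the Nanog-null line, and Esrrb averaged 1107, 803 and 276 CPM in the same order. CPM is the count of a gene relative to the scaled total of its library. All 9 markers of ES cells were detected in every library. The 8 markers of primitive endoderm summed to 14.0 to 22.7 CPM in the Esrrb+Nanog line, 29.4 to 64.7 CPM in the Esrrb line and 12.7 to 44.5 CPM in the Nanog-null line, and none was at 0. By comparison, the 8 fibroblast markers summed to at most 14.1 CPM in the Esrrb+Nanog line and 13.8 CPM in the Esrrb line, and to 13.7, 83.4 and 25.5 CPM in Nanog-null replicates 1, 2 and 3. Nanog-null replicate 2 was also highest in the 9 trophoblast markers, with 202.8 CPM. Over the 31 members tested, that Nanog-null library differed from its partners by a median of -0.11 on the log2 scale, none of them over 2-fold higher. Postn was at 0 in the Esrrb+Nanog and Esrrb lines, Col3a1 and Dcn in the Esrrb+Nanog line, and Elf5, a trophoblast marker, in the Esrrb line. The part of these marker levels in the results was not tested.

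Germ cells arise in the early embryo from epiblast cells that switch on PRDM1 and later carry the receptor KIT. In germ cells, PIWI proteins loaded with small RNAs called piRNAs silence transposons, helped by Tudor-domain proteins and helicases gathered in perinuclear granules called nuage. Meiosis then adds its own cohesins, chromosome axis and synaptonemal complex. In ES cells many of these genes are held silent or low by DNA methylation of their promoters and by a variant Polycomb complex that contains MGA, MAX, E2F6, PCGF6 and L3MBTL2. MGA and MAX bind the E-box CACGTG, and the core of the E2F6 site is TCCCGC.

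Promoter sequence was found for 30 of the 35 members in a RefSeq table on GRCm38.p6. The members without an entry were Dnd1, Piwil2, Spo11, Tdrd6 and Tex15. The 100 bases before the most upstream annotated start are shown for the 9 members with an E-box in that window, because this motif stood in a larger share of the members' promoters than of all promoters. Dazl and Tdrd12 follow as members with large differences between lines and no match to CACGTG or TCCCGC. Capitals mark CACGTG and TCCCGC, the second read on either strand, and each sequence runs 5′ to 3′ on the strand of its gene.
Brdt: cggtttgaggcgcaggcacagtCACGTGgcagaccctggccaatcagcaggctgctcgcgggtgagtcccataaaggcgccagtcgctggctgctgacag
Ddx4: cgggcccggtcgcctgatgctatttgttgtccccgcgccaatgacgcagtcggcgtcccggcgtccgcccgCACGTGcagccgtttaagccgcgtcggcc
Hormad1: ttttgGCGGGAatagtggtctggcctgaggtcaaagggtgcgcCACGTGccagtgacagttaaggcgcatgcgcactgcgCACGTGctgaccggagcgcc
Slc25a31: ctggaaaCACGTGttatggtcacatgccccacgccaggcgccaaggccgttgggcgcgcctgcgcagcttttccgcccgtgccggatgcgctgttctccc
Stk31: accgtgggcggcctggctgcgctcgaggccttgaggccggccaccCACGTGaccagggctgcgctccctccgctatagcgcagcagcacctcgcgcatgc
Sycp1: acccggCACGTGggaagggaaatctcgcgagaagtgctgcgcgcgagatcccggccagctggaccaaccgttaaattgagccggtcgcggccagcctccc
Sycp3: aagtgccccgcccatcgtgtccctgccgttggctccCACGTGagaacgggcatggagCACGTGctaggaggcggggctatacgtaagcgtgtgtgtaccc
Tdrd1: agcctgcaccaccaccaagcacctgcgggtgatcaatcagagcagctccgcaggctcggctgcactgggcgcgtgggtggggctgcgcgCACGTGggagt
Tdrd9: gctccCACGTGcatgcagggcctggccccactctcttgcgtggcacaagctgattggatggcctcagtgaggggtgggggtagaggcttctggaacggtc
Dazl: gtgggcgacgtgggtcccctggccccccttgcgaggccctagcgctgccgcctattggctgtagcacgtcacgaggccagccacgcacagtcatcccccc
Tdrd12: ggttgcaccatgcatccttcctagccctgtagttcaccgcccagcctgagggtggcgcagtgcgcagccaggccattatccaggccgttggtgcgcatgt

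On GRCm38.p6 these windows are chr5:107331094-107331193 for Brdt, chr3:95559577-95559676 for Hormad1, chr3:40708771-40708870 for Slc25a31, chr6:49395439-49395538 for Stk31, chr10:88459487-88459586 for Sycp3, chr19:56826109-56826208 for Tdrd1 and chr12:111971459-111971558 for Tdrd9, all on the plus strand. They are chr13:112652311-112652410 for Ddx4, chr3:102936101-102936200 for Sycp1, chr17:50293621-50293720 for Dazl and chr7:35537745-35537844 for Tdrd12, all on the minus strand. Over whole promoters, from 250 bases before to 50 after each start, the members had 37 entries. CACGTG stood in 14 of these (37.8%), against 7.2% of the 32851 promoters in the table. TCCCGC, on either strand, stood in 17 (45.9%) against 19.98%, and CCAAT, the core of the NF-Y site, on either strand in 35.1% against 37.4%. The members' promoters were also richer in CpG, with a median of 20 CpG against 7 in all promoters. Among promoters with at least 10 CpG, CACGTG stood in 42.4% of 33 member promoters and in 10.9% of all 14281, and TCCCGC in 51.5% and 40.3%.

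**Figure D1:**
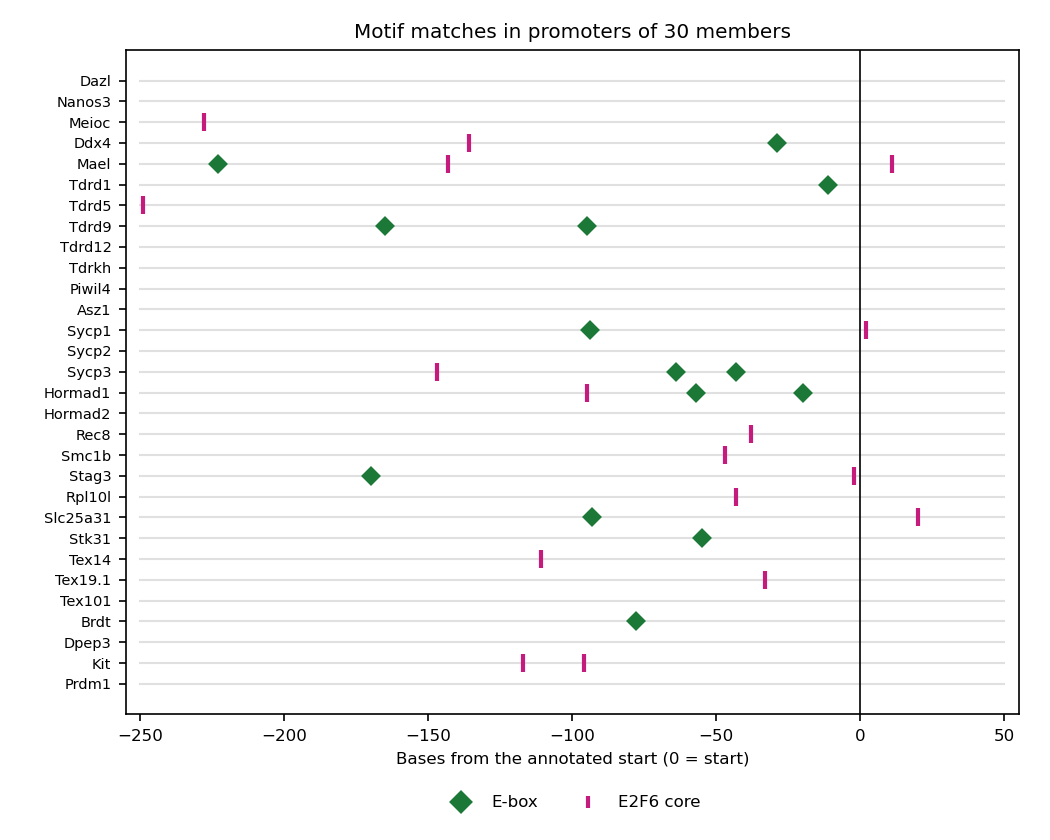
Positions of E-box matches (CACGTG, diamonds) and E2F6 core matches (TCCCGC, bars) in the most upstream RefSeq promoter of 30 members, in bases from the annotated start. E-boxes stand in 11 members, 9 of them within 100 bases before the start, and 7 of the 11 also hold an E2F6 core.

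The median level of the tested members lay below that of all tested genes in all 3 lines. Per exon length, 22 of the 35 members reached 1 RPKM (scaled CPM per kilobase of exon) in the Esrrb+Nanog line, 19 in the Esrrb line and 21 in the Nanog-null line. All of these were among the 31 tested members. Of all tested genes, 70%, 70.1% and 70.9% reached 1 RPKM in the same order of lines. The median level of the 31 members that passed the filter on low counts was 1.95 RPKM in the Esrrb+Nanog line, 2.57 in the Esrrb line and 2.48 in the Nanog-null line, beside 3.64, 3.62 and 3.81 RPKM for all tested genes. Tex19.1 had the highest level of any member in each line, with 74.7, 49.3 and 41.0 RPKM in that order of lines. Rpl10l came next in the Esrrb+Nanog line (30.9 RPKM) and the Esrrb line (46.8 RPKM), and Tdrd12 in the Nanog-null line (23.0 RPKM). At the other end Tdrd6, Asz1, Spo11 and Piwil4 lay under 0.1 RPKM in every line. Tdrd6, Asz1, Spo11 and Dpep3 did not pass the filter and were not tested.

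**Figure D2:**
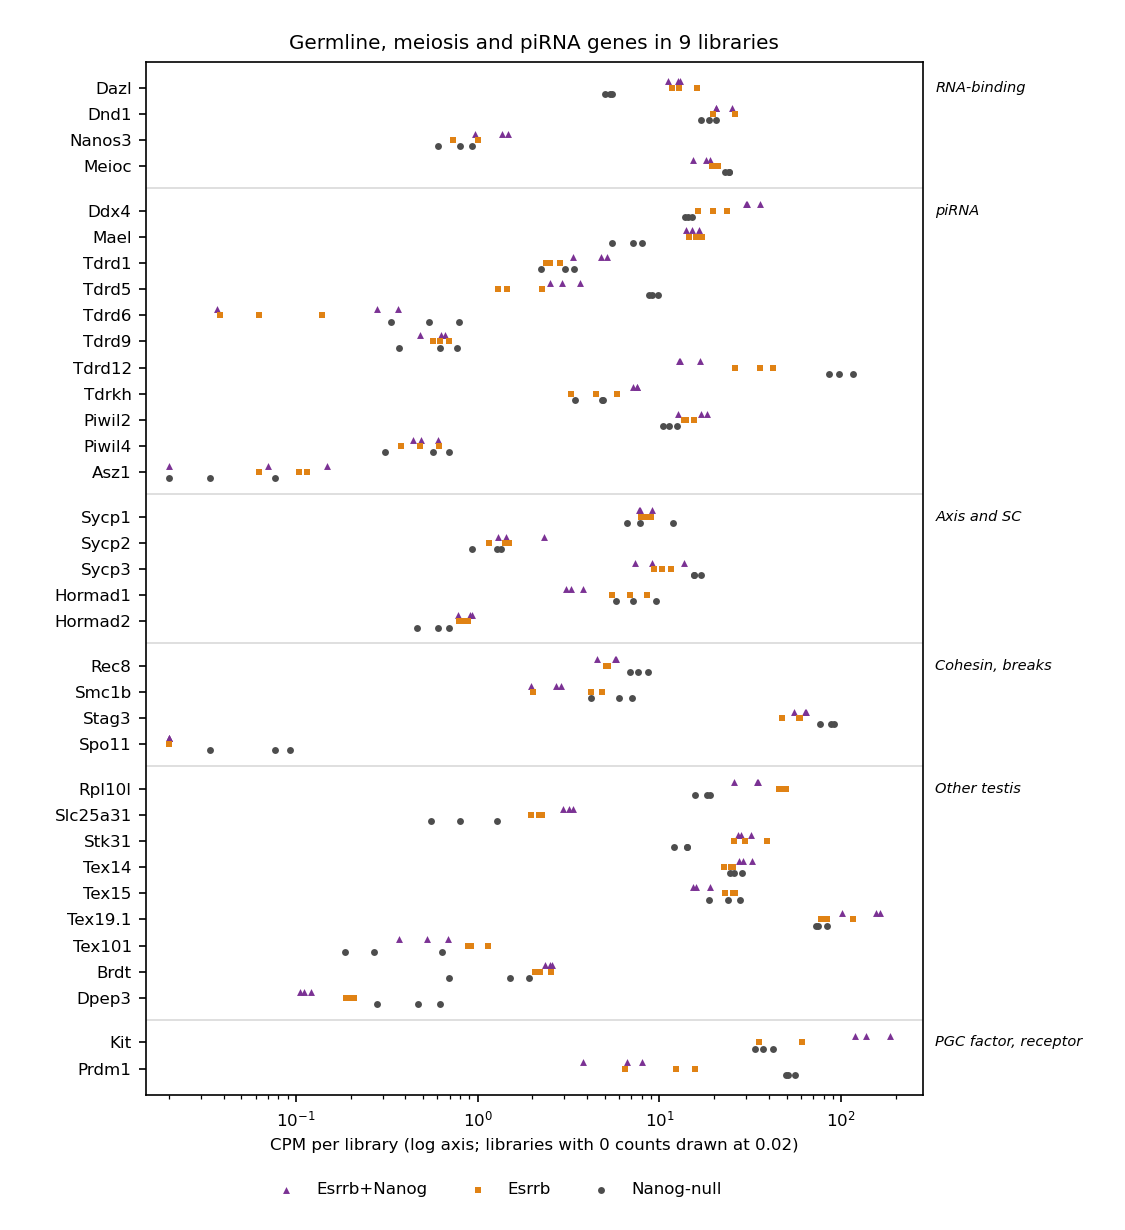
Level of each of the 35 members in each of the 9 libraries, in CPM on a log axis, with the members grouped by role. Triangles are Esrrb+Nanog libraries, squares Esrrb libraries and circles Nanog-null libraries, and libraries with 0 counts are drawn at 0.02. Tdrd12, Tdrd5 and Prdm1 show the Nanog-null circles furthest to the right of the rest, and Kit the Esrrb+Nanog triangles.

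Esrrb cells set beside Nanog-null cells show the difference that goes with added Esrrb in cells titled NanogKO. Of the 31 tested members, 8 were higher in the Esrrb line, 6 were lower and 17 were not called (edgeR quasi-likelihood test, Benjamini-Hochberg adjusted p under 0.05 over all genes). The called share was 45.2%, near the 48.5% of all 16198 tested genes called in this comparison (24.2% higher and 24.2% lower). The balance of directions among members was not stable, at 6 higher and 8 lower without Nanog-null replicate 1 and 7 higher and 9 lower without Esrrb+Nanog replicate 1. Rpl10l, Dazl, Tex101, Slc25a31, Stk31 and Mael rose by more than 1 on the log2 scale, and Tdrd5, Prdm1 and Tdrd12 fell by more than 1. The median log2 change was 0.0815 over the tested members and 0.00632 over all tested genes. The libraries did not overlap for 17 of the 31 members (54.8%), beside 58.4% of all tested genes.

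Esrrb+Nanog cells set beside Esrrb cells show the difference that goes with Nanog when Esrrb is already added. Here 6 of 31 members were higher in the Esrrb+Nanog line, 4 were lower and 21 were not called. The called share was 32.3%, beside 13.2% of all tested genes (5.43% higher and 7.75% lower), and no test of that difference was made. The split over all genes depended on the scaling, with 880 higher and 1255 lower here but 1386 higher and 941 lower when libraries were scaled by their totals alone, which called 7 members higher and 4 lower. The libraries did not overlap for 13 of the 31 members (41.9%), beside 31.6% of all tested genes. Kit rose most and Tdrd12 fell most. Of these 10 calls, Kit and Tdrd12 were kept in all 17 alternative analyses, and the other 8 were lost in at least 1. Ddx4, Hormad1 and Rpl10l lost theirs only in the test against a 1.5-fold change. The number of members called fell to 5 without Esrrb replicate 1 and to 6 without Esrrb replicate 3, Esrrb+Nanog replicate 2 or Esrrb+Nanog replicate 3.

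Setting the Esrrb+Nanog line beside the Nanog-null line spans both steps, and its fitted changes are the sums of those above. It called 13 members higher, 10 lower and 8 in neither direction. That is 74.2% of the tested members, beside 54.4% of all tested genes (27.2% higher and 27.2% lower), again with no test of the difference. The libraries did not overlap for 22 of the 31 members (71%), beside 61.9% of all tested genes. Kit, Slc25a31, Dazl, Mael, Ddx4 and Stk31 rose by more than 1 on the log2 scale. Prdm1, Tdrd12, Tdrd5, Smc1b and Hormad1 fell by more than 1. For a single gene in this design of 3 and 3, the smallest p an exact permutation test can give is 0.1, so calls rest on the fit across all genes.

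**Figure D3:**
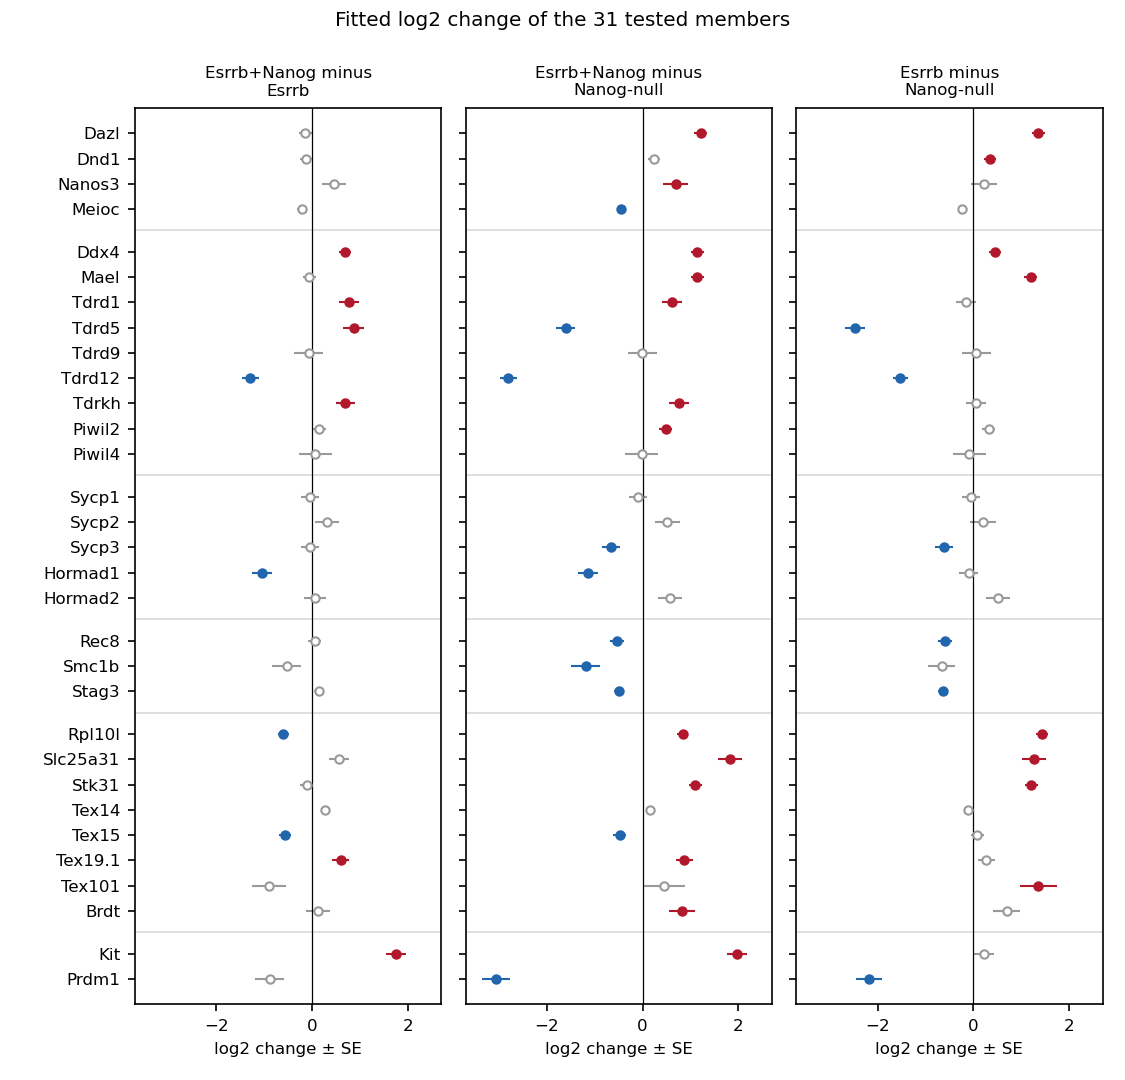
Fitted log2 change with its standard error for the 31 tested members in the 3 comparisons, in the order of the roles. Filled points passed an adjusted p of 0.05, red for higher and blue for lower, and open points did not. Tdrd12 lies left of 0 in every panel, Tdrd5 is right of 0 against the Esrrb line and left of 0 against the Nanog-null line, and no axis or cohesin member is filled to the right of 0.

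Among the RNA-binding and related regulators, Dazl was the one with a large difference. Dazl (ENSMUSG00000010592, mm10 chromosome 17, 50279395 to 50293636), a translational regulator required for germ cell development, had 12.7, 12.99 and 11.1 CPM in the Esrrb+Nanog libraries, 11.7, 15.99 and 12.8 in the Esrrb libraries, and 5.38, 5.01 and 5.45 in the Nanog-null libraries. Every library of both other lines lay above every Nanog-null library, while the Esrrb+Nanog and Esrrb libraries overlapped. The log2 change was 1.35 ± 0.14 (SE) for the Esrrb line over the Nanog-null line (adjusted p = 1.1e-05), -0.14 ± 0.13 for the Esrrb+Nanog line over the Esrrb line (0.533) and 1.21 ± 0.14 for the Esrrb+Nanog line over the Nanog-null line (1.91e-05).

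Dnd1, an RNA-binding partner of NANOS proteins that protects primordial germ cells, averaged 22.01 ± 2.7 CPM in the Esrrb+Nanog line, 23.9 ± 3.7 CPM in the Esrrb line and 18.7 ± 1.8 CPM in the Nanog-null line (SD, n = 3 per line). Its call in the Esrrb line over the Nanog-null line (log2 change 0.35, adjusted p = 0.0388) came with overlapping libraries. That call was lost without any of 5 libraries, Esrrb+Nanog replicate 1, Esrrb replicates 1 and 2 and Nanog-null replicates 1 and 3 (0.0536 to 0.164). Of the Dnd1 exon bases, 5.8% overlap Wdr55 on the opposite strand, where reads cannot be told apart without strand. Wdr55 averaged 72.4, 82.9 and 67.8 CPM in the same order of lines. Wdr55 was also called higher in the Esrrb line over the Nanog-null line (log2 change 0.29, adjusted p = 0.00442). Nanos3, needed for primordial germ cell survival, lay at 1.27 ± 0.27, 0.913 ± 0.16 and 0.777 ± 0.16 CPM in the same order of lines. Nanos3 passed the test in the Esrrb+Nanog line over the Nanog-null line (log2 change 0.69, adjusted p = 0.0438) and missed it with DESeq2 (0.109) and without Esrrb+Nanog replicate 2 or 3, Esrrb replicate 1 or Nanog-null replicate 1 or 3 (0.058 to 0.146). Meioc, which keeps germ cells in meiotic prophase, went the other way, with 17.4 ± 1.9 CPM in the Esrrb+Nanog line, 20.3 ± 0.8 CPM in the Esrrb line and 23.8 ± 0.6 CPM in the Nanog-null line. It fell by 0.45 in the Esrrb+Nanog line relative to the Nanog-null line (adjusted p = 0.00151), and its other changes were -0.23 in the Esrrb line over the Nanog-null line (0.0543, and 0.0316 to 0.0491 in the 6 alternatives that called it) and -0.22 in the Esrrb+Nanog line over the Esrrb line (0.149).

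The piRNA and nuage members split in direction, with Ddx4 and Mael higher and Tdrd5 and Tdrd12 lower in both lines with added genes than in the Nanog-null line. Of the 9 tested, 2 rose and 2 fell in the Esrrb line over the Nanog-null line, 4 rose and 1 fell in the Esrrb+Nanog line over the Esrrb line, and 5 rose and 2 fell in the Esrrb+Nanog line over the Nanog-null line. These are 44.4%, 55.6% and 77.8% of the 9, beside 48.5%, 13.2% and 54.4% of all tested genes. Tdrd12 (ENSMUSG00000030491, mm10 chromosome 7, 35469098 to 35537745), a Tudor and helicase-domain protein of secondary piRNA production, had 12.9, 12.9 and 16.7 CPM in the Esrrb+Nanog libraries, 35.9, 26.0 and 42.4 in the Esrrb libraries, and 116, 86.0 and 97.6 in the Nanog-null libraries. No library of one line overlapped another, and the Nanog-null level per exon length, 23.0 RPKM, was the highest of any member in that line after Tex19.1. Tdrd12 fell by 1.52 ± 0.17 in the Esrrb line relative to the Nanog-null line (adjusted p = 2.03e-05) and by 1.29 ± 0.18 in the Esrrb+Nanog line relative to the Esrrb line (0.000811). Across both steps it fell by 2.81 ± 0.18 (2.83e-07).

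Tdrd5, a Tudor protein of the chromatoid body and of pachytene piRNAs, was lowest in the Esrrb line. It had 2.92, 2.49 and 3.64 CPM in the Esrrb+Nanog libraries, 1.45, 1.29 and 2.27 in the Esrrb libraries, and 9.78, 9.09 and 8.80 in the Nanog-null libraries. The 3 lines did not overlap. Tdrd5 fell by 2.47 ± 0.21 in the Esrrb line relative to the Nanog-null line (adjusted p = 3.4e-06) and by 1.60 ± 0.20 in the Esrrb+Nanog line relative to the Nanog-null line (3.84e-05). Its rise of 0.87 ± 0.22 in the Esrrb+Nanog line over the Esrrb line (0.0243) was lost without Esrrb+Nanog replicate 3, Esrrb replicate 1 or Esrrb replicate 2 (0.0623 to 0.103).

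Ddx4 (ENSMUSG00000021758, mm10 chromosome 13, 112598333 to 112652475), the DEAD-box helicase also known as mouse Vasa and a defining nuage protein, stepped up across the lines. It had 29.9, 35.8 and 30.4 CPM in the Esrrb+Nanog libraries, 16.2, 23.6 and 19.8 in the Esrrb libraries, and 13.9, 14.4 and 15.2 in the Nanog-null libraries. The lines did not overlap, although the lowest Esrrb library lay close to the highest Nanog-null one. Ddx4 rose by 0.45 ± 0.13 in the Esrrb line over the Nanog-null line (adjusted p = 0.012), a call lost without Esrrb replicate 2 (0.0505) or Nanog-null replicate 1 (0.0515). It rose by 0.69 ± 0.13 in the Esrrb+Nanog line over the Esrrb line (0.00433) and by 1.14 ± 0.13 in the Esrrb+Nanog line over the Nanog-null line (1.83e-05).

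Mael, a nuage protein needed for transposon silencing, rose in a single step. Its levels were 15.2, 16.6 and 14.0 CPM in the Esrrb+Nanog libraries, 14.5, 15.9 and 17.2 in the Esrrb libraries, and 7.14, 5.51 and 7.995 in the Nanog-null libraries. Both lines with added genes lay above all Nanog-null libraries and overlapped each other. The log2 change was 1.20 ± 0.14 for the Esrrb line over the Nanog-null line (adjusted p = 2.97e-05), -0.06 ± 0.13 for the Esrrb+Nanog line over the Esrrb line (0.823) and 1.14 ± 0.14 for the Esrrb+Nanog line over the Nanog-null line (3.32e-05).

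Tdrd1, a scaffold that binds methylated PIWI proteins, and Tdrkh, a mitochondrial Tudor protein of piRNA trimming, were higher in the Esrrb+Nanog line at low levels. Tdrd1 averaged 4.40 ± 0.95 CPM in the Esrrb+Nanog line, 2.57 ± 0.23 CPM in the Esrrb line and 2.88 ± 0.58 CPM in the Nanog-null line. It rose by 0.77 in the Esrrb+Nanog line over the Esrrb line (adjusted p = 0.0314) and by 0.62 over the Nanog-null line (0.0244). The first of these calls was lost without Esrrb+Nanog replicate 1 or 2 or Esrrb replicate 1 or 3 (0.0893 to 0.107), and the second without Esrrb+Nanog replicate 1 or 2 or Nanog-null replicate 3 (0.0755 to 0.117). Tdrkh averaged 7.38 ± 0.23, 4.53 ± 1.28 and 4.38 ± 0.84 CPM in the same order of lines, with log2 changes of 0.70 in the Esrrb+Nanog line over the Esrrb line (0.0411) and 0.76 over the Nanog-null line (0.00766). The first Tdrkh call was lost without any single Esrrb+Nanog library or without Esrrb replicate 1 or 3 (0.0809 to 0.124). Of the exon bases of Tdrkh, 36.7% overlap Oaz3 on the opposite strand, whose counts stayed at or under a mean of 0.1001 CPM in each line.

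Piwil2, also called MILI, the PIWI protein of fetal germ cells and spermatogonia, had 18.3, 17.0 and 12.7 CPM in the Esrrb+Nanog libraries, 15.4, 13.9 and 13.7 in the Esrrb libraries, and 11.3, 10.5 and 12.5 in the Nanog-null libraries. It rose by 0.48 ± 0.14 in the Esrrb+Nanog line over the Nanog-null line (adjusted p = 0.0108), with no overlap of libraries. The lowest Esrrb+Nanog library (12.7 CPM) lay close to the highest Nanog-null one (12.5 CPM). The other changes were 0.32 in the Esrrb line over the Nanog-null line (0.0694), and 0.15 with Nanog over the Esrrb line (0.501). Piwil4, or MIWI2, the nuclear PIWI protein that guides DNA methylation, and its partner Tdrd9, an ATPase, lay between 0.308 and 0.769 CPM in all libraries and were not called in any comparison. Tdrd6, a chromatoid body protein, had 1, 9 and 8 counts in the Esrrb+Nanog libraries, 4, 2 and 1 counts in the Esrrb libraries and 17, 14 and 10 counts in the Nanog-null libraries. Asz1, a mitochondrial nuage scaffold, had 0 to 4 counts per library.

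**Figure D4:**
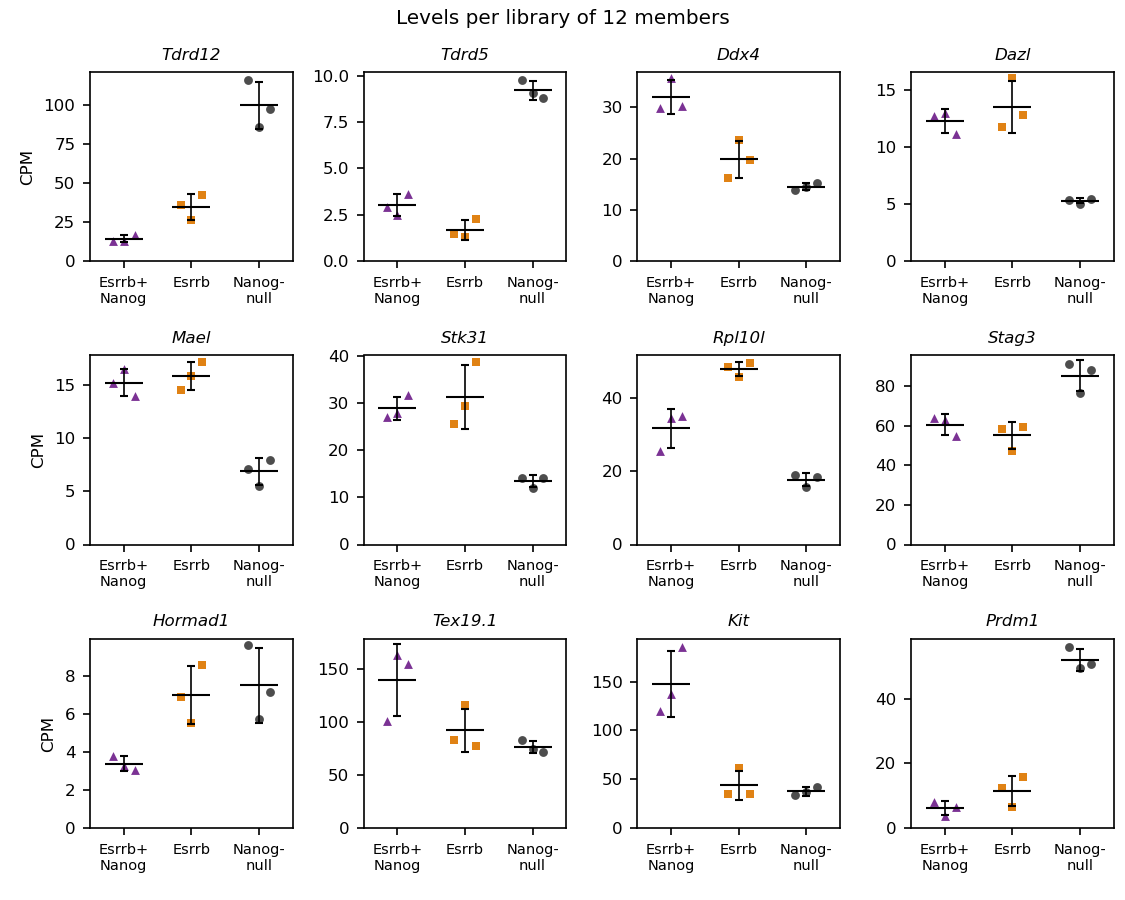
CPM per library of 12 members in the Esrrb+Nanog, Esrrb and Nanog-null lines, with the mean (horizontal line) and SD (bar) of 3 libraries and a linear axis from 0 for each gene. Tdrd12 steps down toward the Esrrb+Nanog line and Ddx4 steps up. Prdm1, Dazl, Mael and Stk31 differ mainly between the Nanog-null line and the rest, and Kit is high in the Esrrb+Nanog line alone.

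Among genes of the meiotic chromosome axis and synaptonemal complex, Hormad1 and Sycp3 were lower in the Esrrb+Nanog line than in the Nanog-null line. Of the 5 tested members, none rose in any comparison. Of these, 1 fell in the Esrrb line over the Nanog-null line, 1 fell in the Esrrb+Nanog line over the Esrrb line and 2 fell in the Esrrb+Nanog line over the Nanog-null line. The called shares of 20%, 20% and 40% stand beside 48.5%, 13.2% and 54.4% of all tested genes, so no direction of the group is read from them. Hormad1 (ENSMUSG00000028109, mm10 chromosome 3, 95559677 to 95587671), a HORMA-domain protein of unsynapsed axes, had 3.80, 3.26 and 3.05 CPM in the Esrrb+Nanog libraries, 6.88, 5.51 and 8.57 in the Esrrb libraries, and 9.59, 5.74 and 7.13 in the Nanog-null libraries. The Esrrb+Nanog libraries lay below all 6 others, and the Esrrb and Nanog-null libraries overlapped. Hormad1 fell by 1.05 ± 0.22 in the Esrrb+Nanog line relative to the Esrrb line (adjusted p = 0.00855) and by 1.15 ± 0.22 relative to the Nanog-null line (0.000861), with a change of -0.10 ± 0.20 in the Esrrb line over the Nanog-null line (0.721).

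Sycp3, a component of the axial element, had 13.7, 9.13 and 7.35 CPM in the Esrrb+Nanog libraries, 9.30, 10.3 and 11.6 in the Esrrb libraries, and 15.4, 16.9 and 15.5 in the Nanog-null libraries. All Nanog-null libraries lay above the rest. It fell by 0.62 ± 0.18 in the Esrrb line (adjusted p = 0.0158) and by 0.67 ± 0.19 in the Esrrb+Nanog line (0.00936), both relative to the Nanog-null line. The first of these calls was lost without Esrrb replicate 1 (0.064). Of the Sycp3 exon bases, 52.2% overlap Chpt1 on the opposite strand, and without strand the reads of the 2 genes cannot be told apart there. Chpt1 averaged 11.9 CPM in the Esrrb+Nanog line, 13.2 CPM in the Esrrb line and 14.0 CPM in the Nanog-null line and was not called. Sycp1, the transverse filament, averaged 8.21 ± 0.76, 8.46 ± 0.52 and 8.81 ± 2.75 CPM in the same order, with no change called. Sycp2, the partner of Sycp3, and Hormad2 lay under 2.5 CPM in every library and were not called, with Hormad2 at 0.870 ± 0.082, 0.833 ± 0.049 and 0.587 ± 0.12 CPM.

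The meiotic cohesin subunits Rec8, Smc1b and Stag3 were lower in the Esrrb+Nanog line than in the Nanog-null line. Of the 3 tested, 2 fell in the Esrrb line over the Nanog-null line, none was called in the Esrrb+Nanog line over the Esrrb line and all 3 fell in the Esrrb+Nanog line over the Nanog-null line. Of all tested genes, 24.2%, 7.75% and 27.2% were called lower in these comparisons. Stag3 (ENSMUSG00000036928, mm10 chromosome 5, 138280240 to 138312393), the meiotic STAG subunit, had 63.9, 62.9 and 54.7 CPM in the Esrrb+Nanog libraries, 58.3, 47.4 and 59.3 in the Esrrb libraries, and 91.2, 76.2 and 88.1 in the Nanog-null libraries. All Nanog-null libraries lay above the rest. Stag3 fell by 0.63 ± 0.10 in the Esrrb line (adjusted p = 0.000334) and by 0.49 ± 0.10 in the Esrrb+Nanog line (0.00145), both relative to the Nanog-null line. Rec8, the meiotic kleisin, averaged 5.32 ± 0.69, 5.12 ± 0.059 and 7.72 ± 0.91 CPM in the Esrrb+Nanog, Esrrb and Nanog-null lines and fell by 0.59 in the Esrrb line (0.00441) and by 0.54 in the Esrrb+Nanog line (0.00656), both relative to the Nanog-null line. Smc1b, the meiotic SMC1 subunit, had 2.88, 1.97 and 2.695 CPM in the Esrrb+Nanog libraries, 4.18, 2.01 and 4.80 in the Esrrb libraries, and 6.02, 4.20 and 7.06 in the Nanog-null libraries.

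Smc1b fell by 1.19 ± 0.30 in the Esrrb+Nanog line relative to the Nanog-null line (adjusted p = 0.00546). Its change of -0.66 ± 0.29 in the Esrrb line over the Nanog-null line missed the threshold (0.0785), and passed it with the replicate number as a block (0.00632). Among the mitotic counterparts of these subunits, Rad21, Stag2 and Stag1 moved in different directions, and Smc1a is not described here. Rad21, the mitotic kleisin, rose to 634 ± 18 CPM in the Esrrb+Nanog line and 726 ± 23 CPM in the Esrrb line, against 455 ± 15 CPM in the Nanog-null line (log2 change 0.67 in the Esrrb line over the Nanog-null line, adjusted p = 2.23e-06). Stag2 fell to 133 ± 5.5 CPM in the Esrrb+Nanog line, against 179 ± 24 CPM in the Esrrb line and 217 ± 19 CPM in the Nanog-null line. Stag1 rose to 185 ± 13 CPM in the Esrrb+Nanog line, against 142 ± 13 CPM in the Esrrb line and 135 ± 7.0 CPM in the Nanog-null line. Spo11, the enzyme that makes meiotic DNA breaks, had no count in any Esrrb+Nanog or Esrrb library and 2, 2 and 1 counts in the Nanog-null libraries. A count of 0 over a line allows up to 0.0373 CPM in the Esrrb+Nanog line and 0.0346 CPM in the Esrrb line, counting error only, taking 3 counts as the limit.

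Among the other genes named for the testis, Rpl10l, Slc25a31 and Stk31 were higher in both lines with added genes than in the Nanog-null line. Of the 8 tested, 4 rose and none fell in the Esrrb line over the Nanog-null line, 1 rose and 2 fell in the Esrrb+Nanog line over the Esrrb line, and 5 rose and 1 fell in the Esrrb+Nanog line over the Nanog-null line. The called shares were 50%, 37.5% and 75%, the first near the 48.5% of all tested genes and the others beside 13.2% and 54.4%. Stk31 (ENSMUSG00000023403, mm10 chromosome 6, 49395604 to 49469501), a kinase-like protein with a Tudor domain, had 27.1, 27.95 and 31.7 CPM in the Esrrb+Nanog libraries, 25.6, 29.5 and 38.8 in the Esrrb libraries, and 14.2, 12.1 and 14.1 in the Nanog-null libraries. Both lines with added genes lay above all Nanog-null libraries and overlapped each other. Stk31 rose by 1.22 ± 0.14 in the Esrrb line (adjusted p = 3.36e-05) and by 1.10 ± 0.14 in the Esrrb+Nanog line (5.33e-05), both over the Nanog-null line. Slc25a31, the ADP/ATP carrier of male germ cells, averaged 3.15 ± 0.20, 2.13 ± 0.15 and 0.877 ± 0.36 CPM in the Esrrb+Nanog, Esrrb and Nanog-null lines, which did not overlap. It rose by 1.26 ± 0.25 in the Esrrb line (0.00147) and by 1.82 ± 0.24 in the Esrrb+Nanog line (7.17e-05) over the Nanog-null line, while its change of 0.56 in the Esrrb+Nanog line over the Esrrb line was not called (0.114). Of its counterparts in other tissues, Slc25a5 was not called in any comparison, at 345 ± 40, 383 ± 18 and 386 ± 16 CPM. Slc25a4 is not described here.

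Rpl10l (ENSMUSG00000060499, mm10 chromosome 12, 66283379 to 66284401), the testis copy of the X-linked ribosomal protein gene Rpl10, peaked in the Esrrb line. It had 25.5, 34.4 and 34.97 CPM in the Esrrb+Nanog libraries, 48.4, 45.7 and 49.4 in the Esrrb libraries, and 19.0, 15.8 and 18.3 in the Nanog-null libraries. The 3 lines did not overlap. Rpl10l rose by 1.44 ± 0.12 in the Esrrb line over the Nanog-null line (adjusted p = 2.75e-06), fell by 0.60 ± 0.11 in the Esrrb+Nanog line relative to the Esrrb line (0.00579) and rose by 0.84 ± 0.12 in the Esrrb+Nanog line over the Nanog-null line (0.000109). The copies are similar in sequence and how the authors counted shared reads is not given, so the level of Rpl10l is uncertain. Rpl10 was lowest in the Esrrb+Nanog line. It averaged 541 ± 16 CPM there, 615 ± 9.6 CPM in the Esrrb line and 663 ± 11 CPM in the Nanog-null line. Its change of -0.11 in the Esrrb line over the Nanog-null line was not called (adjusted p = 0.0916). Tests of Rpl10 in the other comparisons are not given here.

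Tex19.1, which restrains retrotransposons and is expressed in ES cells and placenta as well as germ cells, had 101, 163 and 155 CPM in the Esrrb+Nanog libraries, 83.2, 116 and 77.7 in the Esrrb libraries, and 83.2, 74.6 and 72.3 in the Nanog-null libraries. The lowest Esrrb+Nanog library lay below the highest Esrrb library, replicate 2. Tex19.1 rose by 0.87 ± 0.18 in the Esrrb+Nanog line over the Nanog-null line (adjusted p = 0.00138). Its rise of 0.60 ± 0.17 over the Esrrb line (0.0428) was lost on leaving out Esrrb+Nanog replicate 2 or 3, Esrrb replicate 1 or 3, or any Nanog-null library (0.05 to 0.16). Tex15, which acts in transposon silencing and recombination, averaged 16.8 ± 1.9, 24.8 ± 1.5 and 23.4 ± 4.4 CPM in the Esrrb+Nanog, Esrrb and Nanog-null lines. It fell by 0.56 in the Esrrb+Nanog line relative to the Esrrb line (0.0172) and by 0.48 relative to the Nanog-null line (0.00936), and the first of these was lost without Esrrb+Nanog replicate 2 or 3 or Esrrb replicate 1 or 3 (0.0539 to 0.0682).

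Tex14, needed for the bridges between germ cells, was not called in any comparison, although its change of 0.27 in the Esrrb+Nanog line over the Esrrb line (adjusted p = 0.068) passed with DESeq2 (0.0446). Tex14 averaged 29.4 ± 2.5, 24.3 ± 1.5 and 26.3 ± 2.1 CPM in the Esrrb+Nanog, Esrrb and Nanog-null lines. Brdt, the BET bromodomain protein of spermatogenesis, averaged 2.48 ± 0.12, 2.27 ± 0.24 and 1.37 ± 0.62 CPM in that order and rose by 0.82 in the Esrrb+Nanog line over the Nanog-null line (adjusted p = 0.0243). Its change of 0.70 in the Esrrb line over the Nanog-null line was not called (adjusted p = 0.0547) and passed with the replicate number as a block (0.0429). The call against the Nanog-null line in the Esrrb+Nanog line was lost without Esrrb+Nanog replicate 1 or 2 or Nanog-null replicate 1 (0.0501 to 0.0617). Tex101, a surface glycoprotein of germ cells, rose by 1.35 ± 0.39 in the Esrrb line over the Nanog-null line (0.0124), from a total of 85 counts in the Esrrb line and 30 in the Nanog-null line. Without Nanog-null replicate 2 its adjusted p was 0.0536. Dpep3, a membrane dipeptidase of the testis, had 3, 3 and 3 counts in the Esrrb+Nanog libraries, 6, 6 and 5 counts in the Esrrb libraries and 6, 16 and 14 counts in the Nanog-null libraries.

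The primordial germ cell genes Kit and Prdm1 differed in opposite directions. Kit (ENSMUSG00000005672, mm10 chromosome 5, 75574916 to 75656722), the receptor tyrosine kinase that primordial germ cells need to survive and migrate, had 119.7, 137 and 186 CPM in the Esrrb+Nanog libraries, 35.3, 61.0 and 35.2 in the Esrrb libraries, and 33.6, 37.0 and 42.3 in the Nanog-null libraries. Every Esrrb+Nanog library lay above all 6 others, and the Esrrb and Nanog-null libraries overlapped. Kit rose by 1.75 ± 0.21 in the Esrrb+Nanog line over the Esrrb line (adjusted p = 0.000396) and by 1.97 ± 0.21 over the Nanog-null line (1.45e-05). The change in the Esrrb line over the Nanog-null line was 0.22 ± 0.21 (0.416). Kitl, its ligand, averaged 7.24 ± 0.94 CPM in the Esrrb+Nanog line, 12.4 ± 2.5 CPM in the Esrrb line and 11.8 ± 0.70 CPM in the Nanog-null line, and fell by 0.77 in the Esrrb+Nanog line relative to the Esrrb line (0.00631). Kit also marks mast cells and melanocytes. Of 9 markers of blood, mast cells and melanocytes, which summed to 26.9 to 36.1 CPM in the Esrrb+Nanog line, 26.6 to 31.8 CPM in the Esrrb line and 8.36 to 11.2 CPM in the Nanog-null line, the mast cell gene Cpa3 and the globins Hbb-bt and Hba-a1 were at 0 in all libraries. Most of that sum was Mitf, at 25.7, 24.9 and 6.50 CPM.

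Prdm1 (ENSMUSG00000038151, mm10 chromosome 10, 44437177 to 44528501), the repressor BLIMP1 that sets the primordial germ cell fate, was highest in the Nanog-null line. It had 8.05, 3.78 and 6.65 CPM in the Esrrb+Nanog libraries, 12.4, 6.45 and 15.8 in the Esrrb libraries, and 55.9, 49.5 and 50.7 in the Nanog-null libraries. The Nanog-null libraries lay far above the rest, and the Esrrb+Nanog and Esrrb libraries overlapped. Prdm1 fell by 2.18 ± 0.27 in the Esrrb line (adjusted p = 5.64e-05) and by 3.07 ± 0.29 in the Esrrb+Nanog line (5.08e-06), both relative to the Nanog-null line. Its change in the Esrrb+Nanog line over the Esrrb line was -0.89 ± 0.30, which missed the threshold (0.0708), passed it without Esrrb replicate 2 (-1.18, 0.00416) and passed it with the replicate number as a block (0.0189). Prdm1 also acts in endoderm and trophoblast. The 8 endoderm markers summed to 14.0 to 22.7 CPM in the Esrrb+Nanog line and 29.4 to 64.7 CPM in the Esrrb line. In the Nanog-null line they summed to 12.7 to 44.5 CPM. The 9 trophoblast markers summed to 35.9 to 46.3 CPM in the Esrrb+Nanog line, 26.8 to 31.4 CPM in the Esrrb line and 59.8 to 202.8 CPM in the Nanog-null line. The part of either marker sum in the Prdm1 difference was not tested.

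The listed germline genes that are not members gave a further view of the same pathways. Of 15 other piRNA genes tested, 8 were higher and none lower in the Esrrb line over the Nanog-null line, with a median log2 change of 0.55. None was higher and 2 were lower in the Esrrb+Nanog line over the Esrrb line, and 6 were higher and none lower in the Esrrb+Nanog line over the Nanog-null line. The called shares were 53.3%, 13.3% and 40%, beside 48.5%, 13.2% and 54.4% of all tested genes. Without Esrrb replicate 3 these genes gave 7 higher and 1 lower in the Esrrb line over the Nanog-null line. Mov10l1, the helicase that feeds piRNA precursors to processing, averaged 18.4 ± 1.6 CPM in the Esrrb+Nanog line, 13.7 ± 3.3 CPM in the Esrrb line and 4.84 ± 0.075 CPM in the Nanog-null line, a log2 change of 1.51 ± 0.16 in the Esrrb line over the Nanog-null line (adjusted p = 1.94e-05). Morc1, which silences transposons in male germ cells, peaked in the Esrrb line, with 111 ± 22, 153 ± 13 and 76.2 ± 11 CPM in the same order. It fell by 0.46 in the Esrrb+Nanog line relative to the Esrrb line (0.0461). Btbd18, a regulator of pachytene piRNA transcription, averaged 3.88 ± 0.62, 2.63 ± 0.28 and 1.31 ± 0.22 CPM and rose by 1.55 ± 0.20 in the Esrrb+Nanog line over the Nanog-null line (5.24e-05).

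Of 27 other meiosis genes tested, 5 were higher and 11 lower in the Esrrb line over the Nanog-null line, 1 was higher and 4 lower in the Esrrb+Nanog line over the Esrrb line, and 4 were higher and 9 lower in the Esrrb+Nanog line over the Nanog-null line. The called shares were 59.3%, 18.5% and 48.1%, beside 48.5%, 13.2% and 54.4% of all tested genes. Stra8, the retinoic acid target that starts meiosis, had the largest change of the 27 in each comparison, at 0.283 ± 0.058 CPM in the Esrrb+Nanog line, 1.19 ± 0.52 CPM in the Esrrb line and 17.6 ± 5.0 CPM in the Nanog-null line. It fell by 3.87 ± 0.29 in the Esrrb line relative to the Nanog-null line (adjusted p = 1.28e-06). In the further comparisons it fell by 2.06 ± 0.45 in the Esrrb+Nanog line relative to the Esrrb line (adjusted p = 0.0112) and fell by 5.93 ± 0.36 in the Esrrb+Nanog line relative to the Nanog-null line (1.95e-07). Syce1, a central element protein of the synaptonemal complex, was among the genes that rose, with 23.2 ± 0.70 CPM in the Esrrb+Nanog line, 16.6 ± 0.77 CPM in the Esrrb line and 3.99 ± 0.22 CPM in the Nanog-null line. It rose by 2.06 ± 0.10 in the Esrrb line over the Nanog-null line (adjusted p = 4.02e-08). Majin, which tethers meiotic telomeres to the nuclear envelope, fell by 2.20 ± 0.28 in the Esrrb+Nanog line relative to the Nanog-null line (4.95e-05), at 0.897 ± 0.063 CPM against 4.13 ± 0.57 CPM.

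**Figure D5:**
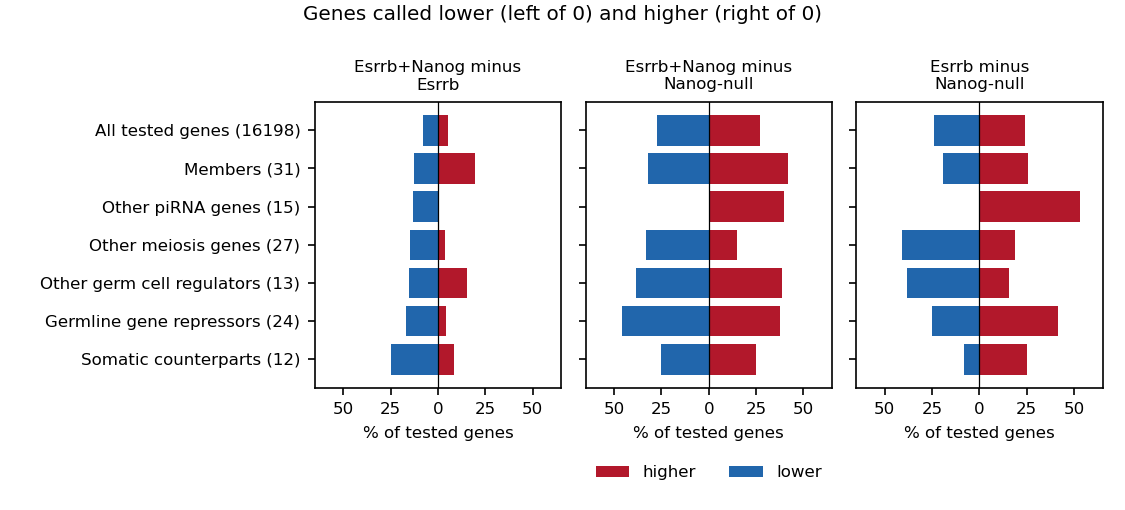
Share of tested genes called higher (right of 0) and lower (left of 0) in each comparison, for all tested genes, the members and 5 lists of related genes, with the number tested in brackets. Other piRNA genes are called in 1 direction only against the Nanog-null line, 8 and 6 higher with none lower, and other meiosis genes mostly lower, 11 and 9 lower with 5 and 4 higher.

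Genes that hold germline genes silent differed in both directions. Of 24 such repressors, 10 were higher and 6 lower in the Esrrb line over the Nanog-null line, 1 was higher and 4 lower in the Esrrb+Nanog line over the Esrrb line, and 9 were higher and 11 lower in the Esrrb+Nanog line over the Nanog-null line. The called shares were 66.7%, 20.8% and 83.3%, beside 48.5%, 13.2% and 54.4% of all tested genes. E2f6 averaged 61.3 ± 10 CPM in the Esrrb+Nanog line, 45.7 ± 5.3 CPM in the Esrrb line and 32.5 ± 2.4 CPM in the Nanog-null line, a log2 change of 0.92 ± 0.12 in the Esrrb+Nanog line over the Nanog-null line (adjusted p = 6.58e-05). Of its complex partners, Mga and Pcgf6 went the other way, falling by 0.47 (0.0336) and 0.56 (6.15e-05) in the same comparison. Max and L3mbtl2 are counted among the 24 and are not described here. The de novo DNA methyltransferases fell in the Esrrb+Nanog line relative to the Esrrb line. Dnmt3a averaged 153 ± 15 CPM in the Esrrb+Nanog line, 315 ± 36 CPM in the Esrrb line and 181 ± 0.28 CPM in the Nanog-null line, and fell by 1.04 ± 0.09 in the Esrrb+Nanog line relative to the Esrrb line (3.8e-05). Dnmt3b fell by 0.70 ± 0.08 in that comparison (0.000192), and their cofactor Dnmt3l by 0.49 ± 0.09 (0.00523).

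Set beside the promoter motifs, the 11 members with an E-box gave 4 higher and 2 lower in the Esrrb line over the Nanog-null line, 2 higher and 1 lower in the Esrrb+Nanog line over the Esrrb line, and 6 higher and 3 lower in the Esrrb+Nanog line over the Nanog-null line. The 19 members with a promoter and no E-box gave 3 higher and 4 lower, 4 higher and 2 lower, and 6 higher and 6 lower in these comparisons, with 2 not tested. The 15 members with the E2F6 core gave 4 higher and 4 lower, 4 higher and 2 lower, and 6 higher and 7 lower. The 15 other members with a promoter gave 3 higher and 2 lower, 2 higher and 1 lower, and 6 higher and 2 lower. Of these 15, 2 were not tested. Of all tested genes, 48.5%, 13.2% and 54.4% were called in these comparisons, and no difference between the motif sets was tested. Both motifs stood in promoters of members that rose, such as Ddx4 and Mael, and of members that fell, such as Hormad1 and Stag3. A match describes the sequence and does not show that a factor binds there.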

How the data were processed

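Total RNA of 9 samples of sorted mouse ES cells was sequenced after depletion of ribosomal RNA, per the labels' protocols. The authors deposited whole-number read counts per Ensembl gene, 1 column per library, unscaled, as the headers and values of the deposited table show. bcl2fastq 2.19.1, STAR 2.5.3a and mm10 are named in the submitters' processing notes. The gene annotation behind the counts, and whether reads were counted by strand, is not given in the sources used here. Antisense and near-identical genes therefore cannot be told apart. Of 15 columns of libraries, the 9 that matched sample titles were used and 6 were not used here.

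Symbols, positions and exon lengths came from GENCODE M21 (mm10). Tests used edgeR 4.0.16 under R 4.3.3. The default low-count filter (minimum count 10) left 16198 genes. Libraries were scaled by TMM (trimmed mean of M values), a quasi-likelihood model with line as its term was fitted to all 9 libraries, and Benjamini-Hochberg adjustment ran across every gene that was tested. Genes with an adjusted p under 0.05 were called. An adjusted p in the text comes from this test unless DESeq2 (1.42.0) or another setting is named. The standard error is the absolute log2 change divided by the square root of F. Per-length levels (RPKM) use the union of exons. The procedure was also run on simulated counts in which few genes changed. Far more genes were called in these data, so that run does not test the scaling at such shares. Alternatives were other scaling factors, DESeq2, other filters, a fit of the 2 lines at issue only, blocking by replicate number, asking for changes beyond 1.5-fold, and leaving out each of the libraries. Replicates of a line differed by 5.53 to 21.9 in chi-square per gene, so none looked like a library deposited again.

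All 35 members are described. From related lists, the genes named are among the 2 called genes per list and comparison with the largest change and a mean of at least 1 CPM, or are the listed counterparts of members, the ligand Kitl and listed repressors. Marker genes and the opposite-strand neighbours Wdr55, Oaz3 and Chpt1 are named beside the results they touch, and Gm45752 among the other observations. Tdrd5 and Piwil4 each share 2.5% of their exon bases with an opposite-strand gene, 4930518J20Rik and Gm10706. Neither of these genes had a mean over 0.0128 CPM in any line. The members and lists were chosen with earlier results of these data known. Promoters came from RefSeq (GRCm38.p6). A count of promoters with at least 10 CpG was added after the data were seen.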

Additional observations from a re-analysis of the deposited data

How the results depend on the processing

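No called change of a member changed sign under any alternative, but the balance of higher and lower calls did in places. Members in the Esrrb+Nanog line over the Esrrb line went to 2 higher and 3 lower without Esrrb replicate 1, 5 and 6 without Esrrb replicate 2, and 3 and 4 when only the 2 lines compared were fitted. In the Esrrb+Nanog line over the Nanog-null line they were 10 higher and 11 lower without Esrrb+Nanog replicate 2. Asking for changes beyond 1.5-fold left 8 members and 2488 genes in the Esrrb line over the Nanog-null line, 2 members and 233 genes in the Esrrb+Nanog line over the Esrrb line, and 11 members and 3063 genes in the Esrrb+Nanog line over the Nanog-null line. Leaving out 1 library at a time gave 13 to 18 members and 6654 to 8263 genes in the first comparison, 5 to 11 members and 1105 to 2374 genes in the second, and 21 to 24 members and 7729 to 9123 genes in the third. In the second comparison 1105 genes were called without Esrrb replicate 1, 1215 without Esrrb+Nanog replicate 2 and 1378 without Esrrb replicate 3, against 2135 with all libraries. Calls of 8 members in the first comparison, 2 in the second and 11 in the third were kept in all 17 alternatives. Without Nanog-null replicate 2, the members called were 15, 10 and 23. DESeq2 called 15, 11 and 22.

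Same-numbered libraries of different lines deviated together with correlations of -0.025 to 0.278, and differently numbered ones with -0.329 to 0.224. These ranges overlap, so whether the numbers pair the samples cannot be told from them. The main fit has line as its only term. With the replicate number as a block, 16, 11 and 23 members and 7997, 2381 and 8946 genes were called in the 3 comparisons. Low depth limits Tdrd6, Asz1, Spo11 and Dpep3, which had at most 17 counts in a library.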

Other observations

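Genes of late sperm and egg development were nearly silent in all 3 lines. Of 16 spermatid genes, 4 passed the filter on low counts, and the 16 summed to 1.25 to 2.33 CPM in the Esrrb+Nanog libraries, 1.73 to 2.27 CPM in the Esrrb libraries and 4.93 to 6.16 CPM in the Nanog-null libraries. Most of the difference was Ldhc, the lactate dehydrogenase of sperm, at 0.230 ± 0.17 CPM in the Esrrb+Nanog line, 0.422 ± 0.12 CPM in the Esrrb line and 3.67 ± 0.25 CPM in the Nanog-null line (SD, n = 3 per line). Ldhc fell by 3.12 ± 0.34 on the log2 scale in the Esrrb line relative to the Nanog-null line (SE, edgeR adjusted p = 1.79e-05). Of 10 oocyte genes, 2 passed the filter, and the 10 summed to at most 9.78 CPM in any library.

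Of 13 other germ cell regulators tested, 2 were higher and 5 lower in the Esrrb line over the Nanog-null line, 2 were higher and 2 lower in the Esrrb+Nanog line over the Esrrb line, and 5 were higher and 5 lower in the Esrrb+Nanog line over the Nanog-null line. The called shares were 53.8%, 30.8% and 76.9%, beside 48.5%, 13.2% and 54.4% of all tested genes. Sohlh2, chosen after its values were seen, is a transcription factor of spermatogonia and oocytes and averaged 26.8 ± 3.2 CPM in the Esrrb+Nanog line, 32.1 ± 2.4 CPM in the Esrrb line and 6.53 ± 0.55 CPM in the Nanog-null line, a log2 change of 2.29 ± 0.11 in the Esrrb line over the Nanog-null line (adjusted p = 5.74e-08). Gfra1, the GDNF receptor of spermatogonial stem cells, was lower in both lines with added genes, at 0.482 ± 0.11, 0.261 ± 0.074 and 7.31 ± 2.3 CPM. It fell by 4.76 ± 0.32 in the Esrrb line relative to the Nanog-null line (5.38e-07).

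The long noncoding gene Gm45752, which overlaps 7.0% of the Dpep3 exon bases on the opposite strand, averaged 0.158 ± 0.11 CPM in the Esrrb+Nanog line, 0.368 ± 0.051 CPM in the Esrrb line and 3.27 ± 0.31 CPM in the Nanog-null line (adjusted p = 6.09e-06 for the Esrrb line over the Nanog-null line). It was named after its values were seen.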
